A study of Mus musculus with 20 samples.

Results

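Blood vessel growth was followed through 10 genes: Vegfa, Kdr, Flt1, Angpt1, Angpt2, Tek, Tie1, Pecam1, Cdh5, and Vwf. They were chosen by name, as genes whose symbol the array files give to a probe. The choice used no rule on their values, but earlier results of these data were known when it was made. The arrays carried 15 probes for them, of 55681 probes in all, with 1 probe for each of 6 genes and 2 or 3 probes for Vegfa, Kdr, Flt1, and Vwf. The tissue was the part of the diaphragm that was frozen for RNA, from 20 female C57Bl/6 mice that were 8 weeks old at injection into the pleural cavity and were killed 12 weeks later. The 5 groups of 4 mice, with 1 array for each mouse, were control (100 μL of saline with albumin, the carrier in which all fibers were dispersed), SFA (short amosite asbestos, 25 μg per mouse), LFA (amosite enriched for long fibers, 25 μg), NTS (short carbon nanotubes, 5 μg), and NTL (long carbon nanotubes, 5 μg). The study calls the control VC, NTS SNT, and NTL LNT. Because asbestos and nanotubes were given at different doses, a difference between LFA and NTL cannot be told apart from a difference of dose. The RNA is that of all cells of that tissue. In such whole tissue, fewer endothelial cells and less RNA per endothelial cell cannot be told apart.

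Vessels grow when endothelial cells, the lining of all vessels, sense vascular endothelial growth factor A, the product of Vegfa, through the receptor kinase encoded by Kdr. Flt1 encodes a second receptor that binds the same factor tightly and, in its soluble form, withholds it from Kdr. A separate pathway holds grown vessels together: Angpt1 encodes the ligand that activates the receptor encoded by Tek (Tie2), Angpt2 encodes a ligand that mostly opposes it, and Tie1 is a relative of Tek with no strong ligand of its own. Pecam1 and Cdh5 (VE-cadherin) encode adhesion proteins at the contacts between endothelial cells, and Vwf encodes von Willebrand factor, a clotting protein that endothelial cells and platelets store. Skeletal muscle is a capillary-rich tissue, and its fibers are themselves a source of Vegfa.

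The probes are 60-base oligonucleotides, and 3 of them are shown because later comparisons turn on where in a transcript a probe lies. The Tek probe (NCBI37, chr4:94540624-94540683, plus strand) and the Tie1 probe (chr4:118144132-118144191, minus strand) lie in corresponding stretches of the paired receptors. Aligned without gaps, 39 of 57 bases are identical (68.4%), and these are in capitals. The Kdr probe shown is the one farther from the 3′ end of its transcript. It (chr5:76330395-76330454, minus strand) lies 1086 genomic bases upstream of the brighter Kdr probe (chr5:76329309-76329368). The brighter of the Vegfa probes is at chr17:46154387-46154446 (minus strand), and the other, called the upstream probe, lies farther from the 3′ end. An annotation of NCBI37 was not used here, so exons are not given.
Tek: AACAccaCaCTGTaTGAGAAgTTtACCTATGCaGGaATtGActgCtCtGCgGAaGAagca
Tie1: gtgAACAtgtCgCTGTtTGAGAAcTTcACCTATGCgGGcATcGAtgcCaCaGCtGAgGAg
Kdr, upstream probe: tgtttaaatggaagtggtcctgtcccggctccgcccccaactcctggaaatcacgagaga

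Values are log2 signals relative to the 75th percentile of the array, so 0 is the signal that 25% of spots exceed, and values of different probes are not compared with each other. Of the 15 probes, 14 were well above background on all 20 arrays, so the RNA of all 10 genes was measured in every mouse. The Flt1 probe farthest upstream, well above background on 10 arrays, was the exception. Each gene is represented by its brightest probe unless another is named. The 75th percentile ran from 294 to 996 signal units and was higher in the long-fiber groups, with a median of 716 in LFA, 816 in NTL, 575 in control, 553 in SFA, and 455 in NTS. The number of arrays limits the precision. The arrays also differed in how much signal came from probes far from the 3′ end: an index of this, the mean log2 difference between the upstream and the 3′ probe over 1832 probe pairs of other genes, ran from −1.63 to −0.65. Its lowest value in each group was −1.56 (control replicate 2), −1.63 (SFA replicate 1), −1.60 (LFA replicate 3), −1.43 (NTS replicate 4), and −1.54 (NTL replicate 2). These 5 arrays stand apart for many of the genes described here, and changes without them are given below.

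Across the 4 comparisons of a fiber group with the control, few of the blood vessel genes passed the test, and no member was called higher. By limma's test over all 36930 probes tested, with Benjamini-Hochberg adjustment, 0 of the 10 genes differed between LFA and control at an adjusted p under 0.05, against 4.34% of all probes. In NTL, 1 of 10 did (Vegfa, which fell), against 7.84% of all probes, of which 4.03% were lower. In SFA and NTS, 0 of 10 did, against 0% of all probes in each. No member reached 2-fold together with an adjusted p under 0.05 in any comparison, a rule that 3.94% of all probes met in LFA, 6.81% in NTL, 0% in SFA and NTS, 1.16% in LFA against SFA, 7.6% in NTL against NTS, 7.23% in long against short, and 0% in the other 2 comparisons. At an unadjusted p under 0.05 there were 1 gene in LFA (Vegfa), 2 in NTL (Vegfa and Flt1), 0 in SFA, and 1 in NTS (Angpt2), and among all probes the shares were 23.9%, 23.5%, 2.28%, and 3.49%. All 4 mice lay below every control mouse for 0 of the 10 genes in LFA, NTL, and SFA and for 1 (Angpt2) in NTS, and 11.6%, 13.8%, 0.878%, and 0.865% of all probes did so. With so few genes, a count of 0 or 1 does not set the members apart from the other probes.

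**Figure D1:**
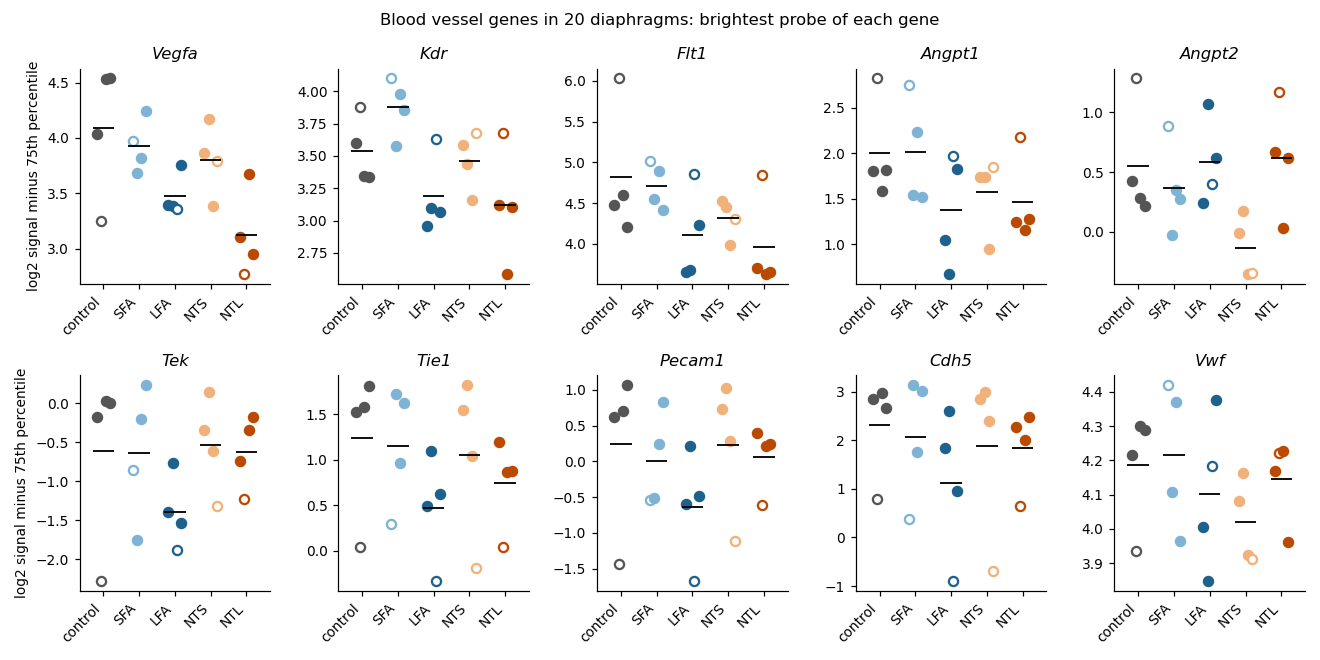
Log2 signal minus the array's 75th percentile (y axis) of the brightest probe of each of the 10 genes in the 5 groups (x axis), with 1 point for each of 4 mice and a line at the group mean. Open circles mark the array with the lowest upstream-minus-3′ index in each group: they are the lowest points of their groups for Cdh5, Tie1, and Pecam1 and the highest for Kdr and Angpt1.

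The direction of the fitted changes was mostly downward in every fiber group, short or long, as it was for the arrays as a whole. In LFA, 9 of the 10 changes were below 0, with a median of −0.68 (log2), and in NTL 9 of 10 were, with a median of −0.44. Over all probes tested, 65.9% of changes were below 0 in LFA, with a median of −0.28, and 65.3% in NTL, with a median of −0.25. In SFA 7 of 10 were below 0, beside 61.2% of all probes, and in NTS 9 of 10 were, beside 56.6%. In SFA the median of the members was −0.10 beside −0.10 for all probes, and in NTS it was −0.23 beside −0.06. Quantile normalization moved the all-probe medians to −0.08 in LFA and −0.09 in NTL and left the members' medians at −0.55 and −0.27, with 8 and 7 of 10 below 0. With the skeletal muscle genes as a covariate, 5 of 10 were below 0 in LFA, with a median of −0.13 beside −0.07 for all probes. In NTL 4 of 10 were, and the median turned to 0.27 beside 0.06 for all probes. That fit called 9 of 36930 probes in LFA and 5 in NTL. The muscle mean of every LFA and NTL mouse lay below that of every control mouse, so this covariate is hard to tell apart from the group. Without NTL replicate 2 alone, the NTL median was −0.18 beside −0.22 for all probes. The single changes were not precise: the 95% interval excluded 0 for Vegfa in LFA and for Vegfa and Flt1 in NTL, and the intervals of Cdh5 spanned −3.00 to 0.61 in LFA and −2.27 to 1.34 in NTL.

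**Figure D2:**
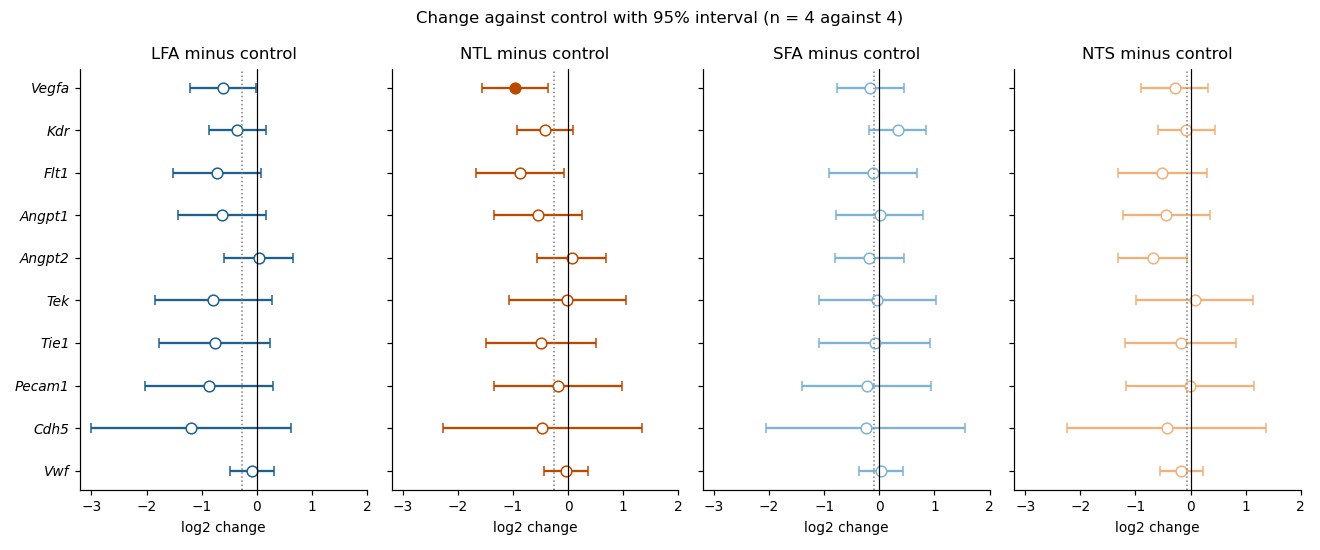
Log2 change against control (x axis) of the 10 genes (rows) in LFA, NTL, SFA, and NTS, with 95% intervals from limma (4 arrays against 4). The only filled circle, an adjusted p under 0.05, is Vegfa in NTL at −0.96, the dotted line is the median change of all probes tested, and the widest intervals are those of Cdh5.

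Vegfa, the growth factor itself, gave the only call among the members. Its brightest probe stood at 4.03, 3.25, 4.53, and 4.54 in the 4 control mice (mean 4.09 ± 0.61, SD). It stood at 3.11, 2.77, 3.68, and 2.95 in the NTL mice (3.13 ± 0.39). Of the NTL mice, 3 lay below every control mouse and 1 lay above the lowest of them. The fall was 0.96 ± 0.29 (SE) on the log2 scale, or 1.95-fold, with an adjusted p of 0.046. In LFA the values were 3.40, 3.39, 3.36, and 3.75 (3.47 ± 0.19), all of them above the lowest control mouse and below the other 3. The change in LFA was −0.62 ± 0.29, with an adjusted p of 0.20, and the groups overlapped. With the log2 75th percentile of the array as a covariate (brightness), the change was called in LFA at −0.96 (adjusted p = 0.049). The mean log2 75th percentile was 9.48 in LFA and 9.59 in NTL, against 8.97 in control, 8.96 in SFA, and 8.79 in NTS. Brightness is therefore in part hard to tell apart from the group, here and in the fits below. SFA (3.93 ± 0.24) and NTS (3.80 ± 0.32) lay between the control and the long-fiber groups, with changes of −0.16 and −0.29 and adjusted p values of 0.999 and 1.0.

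The second Vegfa probe, the upstream one, went the same way with a wider spread. It measured 2.47, 0.91, 2.13, and 2.10 in the control mice and 0.89, −0.78, 0.06, and 1.16 in the NTL mice. Again 3 of the 4 NTL mice lay below every control mouse. The change was −1.57 ± 0.50 in NTL (adjusted p = 0.061) and −1.16 ± 0.50 in LFA (adjusted p = 0.17). The lowest control value of both probes belongs to control replicate 2, the control array with the lowest index. Without that array the changes in NTL were −1.24 (adjusted p = 0.0083) for the brightest probe and −1.90 (adjusted p = 0.039) for the upstream probe. With the lowest-index array of each group left out, a choice made after seeing the data, they were −1.12 (adjusted p = 0.033) and −1.53 (adjusted p = 0.027).

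The call for Vegfa in NTL lay close to the threshold and depended on the processing. Over 31 alternatives with a test, the change of the brightest probe in NTL ran from −1.38 to −0.55, always below 0, and was called in 10. Within slide 2 the single NTL array lay 0.54 below the mean of the 2 control arrays, and within slide 3 the 3 NTL arrays lay on average 1.40 below the single control array. With slide as a block the change was −1.04 (adjusted p = 0.081). The skeletal muscle genes moved with it: of 12 muscle genes tested, 6 fell in NTL, beside 1490 of 36930 probes, and 5 in LFA, beside 761. The mean log2 signal of the muscle genes, relative to the control mean, ran from −0.12 to 0.21 in control and −1.35 to −1.21 in NTL. It ran from −1.30 to −0.68 in LFA, −0.61 to −0.10 in SFA, and −0.86 to 0.46 in NTS. With that mean as a covariate the Vegfa change in NTL was −0.55 (adjusted p = 0.97), in a fit that called 5 probes of 36930 in this comparison. Whether the muscle content of the samples had a part in the Vegfa values was not tested beyond that fit.

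Between the nanotube lengths, Vegfa was lower in NTL than in NTS by an amount that did not pass the test. The difference was −0.67 ± 0.29 (adjusted p = 0.15) for the brightest probe and −1.48 ± 0.50 (adjusted p = 0.072) for the upstream probe, and 0 of the 10 genes were called in this comparison, against 8.78% of all probes. Between the asbestos lengths the difference was −0.46 ± 0.29 (adjusted p = 0.54), with 0 of 10 genes called against 1.16% of all probes. Averaged over both materials, long minus short gave −0.56 ± 0.20 (adjusted p = 0.068), with 0 of 10 genes called against 14.5% of all probes. The asbestos and nanotube length effects on Vegfa differed by 0.22 ± 0.40 (adjusted p = 1.0). In that comparison and in LFA against NTL, 0 of 10 genes were called, against 0% of all probes in each.

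The receptors Kdr and Flt1 had lower means in the long-fiber groups, by amounts that did not pass the test. The brightest Kdr probe measured 3.60, 3.88, 3.34, and 3.34 in the control mice (3.54 ± 0.26). It measured 2.96, 3.10, 3.63, and 3.06 in LFA (3.19 ± 0.30) and 3.12, 3.68, 2.59, and 3.10 in NTL (3.12 ± 0.44). In each long-fiber group 3 of 4 mice lay below every control mouse, and the fourth was the lowest-index array. The changes were −0.35 ± 0.25 in LFA (adjusted p = 0.39) and −0.42 ± 0.25 in NTL (adjusted p = 0.32). SFA lay above the control (3.88 ± 0.22, change 0.34) and NTS close to it (3.46 ± 0.23, change −0.08). The long minus short difference, −0.51 ± 0.17, had the smallest adjusted p of any member in that comparison (0.055), and 6 of the 8 long-fiber mice lay below all 8 short-fiber mice. It passed at −0.61 (adjusted p = 0.011) when the lowest-index array of each group was left out, in a fit that called 27.8% of all probes. It was −0.28 (adjusted p = 0.40) with the array's brightness as a covariate, −0.50 (adjusted p = 0.10) with slide as a block, and −0.37 (adjusted p = 0.085) under quantile normalization.

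Flt1 showed a similar order of groups on its 2 brighter probes. The brightest probe measured 4.47, 6.03, 4.60, and 4.21 in control (4.83 ± 0.82), 3.65, 3.69, 4.85, and 4.23 in LFA (4.10 ± 0.56), and 3.71, 4.85, 3.63, and 3.66 in NTL (3.96 ± 0.59). In NTL, 3 of 4 mice lay below every control mouse, while the fourth, again the lowest-index array, lay above 3 of the 4 controls. The changes were −0.72 ± 0.38 in LFA (adjusted p = 0.25) and −0.87 ± 0.38 in NTL (adjusted p = 0.18). The second probe (chr5:148446872-148446931) gave −0.74 ± 0.31 (adjusted p = 0.17) and −0.88 ± 0.31 (adjusted p = 0.092). With the index as a covariate, the brightest probe was called at −1.04 in LFA (adjusted p = 0.020) and −1.01 in NTL (adjusted p = 0.012). With the brightness covariate it was at −0.21 in LFA (adjusted p = 0.68) and −0.24 in NTL (adjusted p = 0.70), and long minus short went from −0.49 to 0.18 (adjusted p = 0.67). With the lowest-index arrays left out it was not called in either, at −0.57 (adjusted p = 0.14) and −0.76 (adjusted p = 0.068), while long minus short was called at −0.71 (adjusted p = 0.0078). The second probe was then called in NTL at −0.96 (adjusted p = 0.031). In NTS the second Flt1 probe lay below the whole control group in all 4 mice, with a change of −0.62 ± 0.31 and an adjusted p of 1.0. The third Flt1 probe (chr5:148465976-148466035) was well above background on 3 of the 4 control arrays, on 1 in LFA, and on 3 in NTL, and its changes of −1.45 and −0.76 had adjusted p values of 0.24 and 0.59.

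Of the ligands of the vessel-stabilizing pathway, Angpt1 had lower means in LFA and NTL and Angpt2 did not. Angpt1 stood at 2.01 ± 0.56 in control, 1.38 ± 0.62 in LFA, 1.46 ± 0.48 in NTL, 2.01 ± 0.59 in SFA, and 1.57 ± 0.42 in NTS (SD, n = 4). Its changes were −0.63 ± 0.38 in LFA (adjusted p = 0.32) and −0.54 ± 0.38 in NTL (adjusted p = 0.42). Without the lowest-index arrays they were −0.55 (adjusted p = 0.28) and −0.51 (adjusted p = 0.37), and with the brightness covariate −0.27 (adjusted p = 0.64) and −0.11 (adjusted p = 0.89). In LFA 2 of 4 mice and in NTL 3 of 4 mice lay below every control mouse. Angpt2 measured 0.42, 1.28, 0.28, and 0.22 in control, 0.24, 1.07, 0.40, and 0.62 in LFA, and 0.67, 1.17, 0.03, and 0.62 in NTL. These 3 groups overlapped almost wholly, with changes of 0.03 ± 0.30 in LFA and 0.07 ± 0.30 in NTL (adjusted p = 0.96 and 0.92). The 95% intervals allow a change of Angpt2 between −0.60 and 0.66 in LFA and between −0.56 and 0.70 in NTL. The low group for Angpt2 was NTS, at −0.01, 0.18, −0.35, and −0.34, where all 4 mice lay below every control mouse. The change in NTS was −0.68 ± 0.30 with an unadjusted p of 0.034 and an adjusted p of 1.0. NTL stood 0.75 ± 0.30 above NTS for Angpt2 (adjusted p = 0.12).

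The receptors Tek and Tie1 had lower means in LFA, by amounts that did not pass the test. The differences were smaller than the SD of the control mice and larger than that of the LFA mice. Tek stood at −0.60 ± 1.12 in control, −1.39 ± 0.47 in LFA, −0.62 ± 0.47 in NTL, −0.64 ± 0.87 in SFA, and −0.53 ± 0.61 in NTS. The change in LFA was −0.79 ± 0.51 (adjusted p = 0.35), and that in NTL was −0.01 ± 0.51 (adjusted p = 0.99). Tek in NTL nonetheless allows a change between −1.08 and 1.05. The spread in control came from 1 mouse: the control values of Tek were −0.17, −2.28, 0.03, and 0.00. With the lowest-index array of each group left out, the change of Tek was −1.18 in LFA (adjusted p = 0.10) and −0.37 in NTL (adjusted p = 0.66). With the brightness covariate, Tek was called in LFA at −1.52 (adjusted p = 0.048) and in long minus short at −1.37 (adjusted p = 0.022), and was at −0.90 in NTL (adjusted p = 0.24). That fit called 3.29% of all probes in LFA and 7.39% in long minus short, and its covariate is in part hard to tell apart from fiber length. With the muscle genes as a covariate Tek was at −0.27 in LFA and 0.66 in NTL (adjusted p = 1.0 and 0.97). Tie1 stood at 1.24 ± 0.81 in control, 0.47 ± 0.59 in LFA, 0.75 ± 0.49 in NTL, 1.15 ± 0.66 in SFA, and 1.06 ± 0.89 in NTS, with changes of −0.77 ± 0.48 in LFA (adjusted p = 0.34) and −0.49 ± 0.48 in NTL (adjusted p = 0.59). Without the lowest-index arrays these were −0.90 (adjusted p = 0.062) and −0.65 (adjusted p = 0.17), and long minus short was called at −0.60 (adjusted p = 0.035).

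The structural endothelial genes Pecam1 and Cdh5 varied widely between mice of the same group, and neither passed the test in LFA or NTL. Pecam1 spanned −1.43 to 1.06 among the 4 control mice, −1.67 to 0.21 among the LFA mice, and −0.60 to 0.40 among the NTL mice. Its changes were −0.87 ± 0.55 in LFA (adjusted p = 0.34) and −0.18 ± 0.55 in NTL (adjusted p = 0.89). Cdh5 spanned 0.80 to 2.98 in control, −0.89 to 2.59 in LFA, and 0.65 to 2.47 in NTL. Its changes were −1.19 ± 0.86 (adjusted p = 0.41) and −0.47 ± 0.86 (adjusted p = 0.80). Without the lowest-index arrays the changes in LFA were −1.08 (adjusted p = 0.067) for Pecam1 and −1.03 (adjusted p = 0.14) for Cdh5, and those in NTL were −0.51 (adjusted p = 0.39) and −0.57 (adjusted p = 0.45). With the brightness covariate Pecam1 was at −1.54 in LFA (adjusted p = 0.091) and −0.99 in NTL (adjusted p = 0.30), and Cdh5 at −1.80 (adjusted p = 0.23) and −1.20 (adjusted p = 0.50). Within slides, Pecam1 in LFA lay 2.14 below the control mean on slide 1, 0.19 below on slide 2, and 0.49 below on slide 3, and in NTL 0.80 above on slide 2 and 0.75 below on slide 3.

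Vwf was the steadiest of the 10 genes. Its brightest probe measured 4.22, 3.94, 4.30, and 4.29 in control (4.18 ± 0.17), 4.10 ± 0.23 in LFA, 4.14 ± 0.12 in NTL, 4.22 ± 0.22 in SFA, and 4.02 ± 0.12 in NTS. The changes in LFA and NTL were −0.08 ± 0.19 and −0.04 ± 0.19 (adjusted p = 0.81 and 0.93). These 95% intervals, the narrowest of the 10 genes, spanned −0.48 to 0.31 for LFA and −0.44 to 0.36 for NTL. Under quantile normalization the same changes were 0.08 and 0.29. A second Vwf probe, 94445 genomic bases upstream of it, gave −0.03 ± 0.25 and −0.05 ± 0.25.

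Values within a group differed with the index, in opposite directions for different probes. In all 5 groups the lowest-index array gave the lowest of the 4 values for Pecam1, Cdh5, Tie1, the upstream Kdr probe, and the upstream Vegfa probe. In all 5 groups the same array gave the highest of the 4 values for the brightest Kdr probe and for Angpt1. Over all probes measured on every array, 10.05% were lowest in that array in all 5 groups and 10.45% were highest. The pair of Kdr probes is the plainest case, since both report the same gene. In the 5 lowest-index arrays the upstream probe ran from 1.28 to 2.36, and in the other 15 arrays from 2.27 to 4.22. The 3′ probe went the other way, from 3.63 to 4.10 in those 5 arrays and from 2.59 to 3.98 in the other 15. The upstream probe minus the 3′ probe was between −2.35 and −1.74 in the 5 arrays and between −1.46 and 0.63 in the other 15, with no overlap. Cdh5 also separated, at −0.89 to 0.80 in the 5 arrays and 0.96 to 3.13 in the rest, and Tie1 did at −0.33 to 0.30 against 0.49 to 1.82. Vwf followed no such order: its brightest probe was lowest in the lowest-index array in 2 groups and highest in 1. For Vegfa, the upstream minus the 3′ probe overlapped, at −3.64 to −2.34 in the 5 arrays and −3.62 to −1.17 in the other 15. That difference was lowest in the lowest-index array in 3 of 5 groups. The second Flt1 probe, 73081 genomic bases upstream of the brightest, was highest in the lowest-index array in 4 groups and lowest in 0. The mean index was −0.99 ± 0.39 in control, −1.24 ± 0.27 in LFA, −1.11 ± 0.30 in NTL, −1.23 ± 0.36 in SFA, and −0.89 ± 0.37 in NTS.

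**Figure D3:**
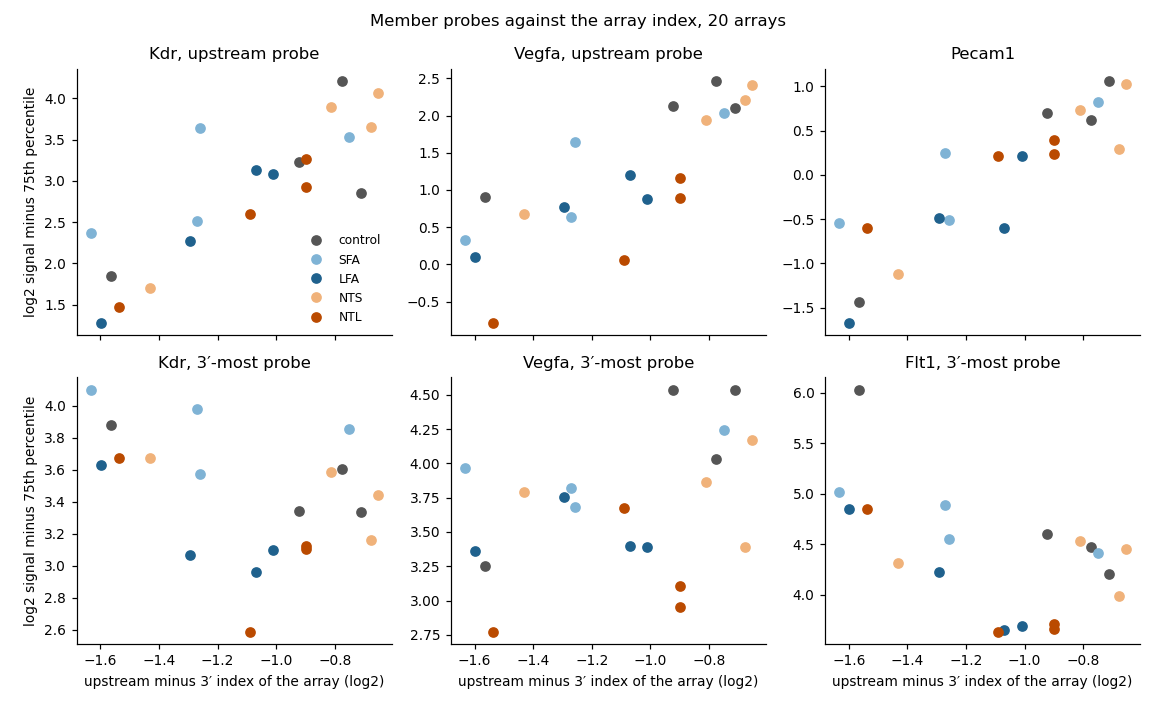
Log2 signal minus the 75th percentile (y axes) of 6 member probes against the upstream-minus-3′ index of the array (x axes, log2), with 1 point for each of 20 arrays, colored by group. The upstream Kdr and Vegfa probes and Pecam1 are low on the arrays at the left, while the 3′-most Kdr and Flt1 probes are high there.

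With the index as a covariate the spread of these genes narrowed and the changes moved toward 0 for the genes that were low in the lowest-index arrays. The change of Cdh5 in LFA became −0.33 ± 0.42, that of Pecam1 −0.32 ± 0.26, that of Tek −0.35 ± 0.34, and that of Tie1 −0.30 ± 0.24, with adjusted p values between 0.42 and 0.63. In the same fit Angpt1 passed in LFA at −0.95 (adjusted p = 0.027), as did Flt1 in LFA and NTL and Vegfa in NTL. That fit called 12.0% of all probes in LFA and 17.96% in NTL, against the 4.34% and 7.84% without the covariate. With the covariate, 10 of 10 changes were below 0 in LFA, with a median of −0.34 beside −0.23 for all probes, and 7 of 10 in NTL, with a median of −0.18 beside −0.22. Leaving out the lowest-index arrays, as given above, instead moved Pecam1, Tek, and Tie1 in LFA away from 0 and Cdh5 slightly toward 0. The treatments of the index thus differed for these genes. Whether the index had a part in the differences between groups was not tested beyond these fits.

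Genes with the pattern most like the mean of Pecam1, Cdh5, Kdr, Tek, and Tie1 over the 20 arrays were Fsd2, Mef2c, Anp32e, Ipo7, Cacng6, Tmcc2, Kcnj2, and Fhl1, with Pearson r from 0.947 to 0.959 among 25387 genes compared. All 8 were lowest in the lowest-index array in all 5 groups, and none is on a list of vessel genes. Within the mean, r was 0.964 for Pecam1, 0.952 for Tie1, 0.925 for Cdh5, 0.861 for Tek, and −0.11 for Kdr, whose brightest probe is the 3′ one. The 20 points share the index, so the likeness is a description of these arrays.

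The wider lists of vessel genes are given for LFA and NTL against control, where 4.34% and 7.84% of all probes were called. The other ligands and receptors of the Vegfa family gave 1 further call in each. Of 7 genes tested, 1 fell in both LFA and NTL and the rest did not pass. The gene was Vegfb, whose product binds Flt1 and is abundant in muscle, at −1.43 ± 0.30 in LFA (adjusted p = 0.014) and −1.40 ± 0.30 in NTL (adjusted p = 0.0083). Its group means were 4.67 in control, 3.24 in LFA, 3.27 in NTL, 4.16 in SFA, and 4.27 in NTS. Pgf, a placental relative of Vegfa that also binds Flt1, was at −1.37 ± 0.51 in LFA (adjusted p = 0.12), and Figf, the gene of Vegfd, and the co-receptor Nrp1 were at 0.20 and −0.55 in LFA and 0.31 and −0.09 in NTL. The median change of the 7 genes was −0.35 in LFA and 0.01 in NTL.

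The calls against control in a list of 22 endothelial genes were all downward. In LFA 3 of 22 fell, beside 761 of 36930 probes, and in NTL 4 of 22 fell, beside 1490. The medians were −0.33 and −0.31, and 0 rose. In long against short, 3 were lower and 1 was higher, beside 2963 and 2391 of all probes. Nos3, which encodes the nitric oxide synthase of endothelium, fell by 0.80 in both groups (adjusted p = 0.035 in LFA and 0.023 in NTL). Gata2, a transcription factor of endothelium and blood progenitors, fell by 0.95 and 1.09 (adjusted p = 0.041 and 0.014). Sox17, a factor of arterial endothelium, fell by 0.98 and 1.04 (adjusted p = 0.048 and 0.026). Ptprb, the phosphatase that acts on Tek, fell by 0.84 in NTL (adjusted p = 0.025) and was at −0.41 in LFA (adjusted p = 0.26). Of 10 genes of Notch signaling in vessels, Notch4, the endothelial Notch receptor, fell by 1.14 in LFA and 1.06 in NTL (adjusted p = 0.041 and 0.039), and the target gene Hey1 fell by 0.99 in NTL (adjusted p = 0.046) and was at −0.77 in LFA (adjusted p = 0.13). Notch1 and Nrarp, a target that restrains the pathway, were at −0.28 and −0.85 in LFA and −0.80 and −0.43 in NTL, and neither passed.

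Genes of sprouting and of the cells that wrap vessels gave 0 calls in LFA or NTL against control. None of 10 genes of tip cells and growth passed there. In NTL against NTS 1 was lower, where 8.78% of all probes were called, and in long against short 1 was, where 14.5% were. The list's medians against control were −0.03 in LFA and −0.20 in NTL. Hgf, a growth factor for endothelium and epithelium, had the largest change among the 4 named by rule, at 1.72 ± 0.59 in LFA and 1.63 ± 0.59 in NTL (adjusted p = 0.094 and 0.096). Angptl4 was at 1.17 in LFA and 0.43 in NTL, Pdgfb, which recruits pericytes, was at −0.68 and −0.59, and Cxcl12 was at −0.26 and −0.40. Of 11 genes of pericytes and vascular smooth muscle 0 passed, with medians of −0.64 in LFA and −0.62 in NTL, lower than the all-probe medians. Those named by rule were Myh11 (−1.62 in LFA), Acta2 (−0.91 in LFA), Cspg4 (−1.03 in LFA), and Cnn1 (−1.68 in LFA), genes of contractile mural cells and pericytes, with adjusted p values in LFA of 0.084, 0.085, 0.10, and 0.15.

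Inhibitors of vessel growth and genes of activated endothelium held the larger changes. Among 9 inhibitors, Thbs1, which encodes thrombospondin 1, rose by 2.54 in LFA and 2.59 in NTL (adjusted p = 0.017 and 0.0081), and Thbs2 rose by 1.65 in NTL (adjusted p = 0.022) and was at 0.97 in LFA (adjusted p = 0.17). Vash1, an inhibitor made by endothelium itself, fell by 1.92 in LFA and 2.87 in NTL (adjusted p = 0.016 and 0.00045). The fourth gene named, Col4a3, the source of the fragment tumstatin, was at −1.08 and −1.57 and did not pass. The list thus held calls in both directions, with 1 up and 1 down in LFA and 2 up and 1 down in NTL. Among all 36930 probes, 842 were up and 761 down in LFA, and 1405 were up and 1490 down in NTL. Of 4 genes tested that mark inflamed endothelium, Selp, which encodes the P-selectin that captures leukocytes, rose by 1.57 and 1.54 (adjusted p = 0.0039 and 0.0019), and Vcam1, an adhesion molecule for leukocytes, rose by 1.41 and 1.76 (adjusted p = 0.018 and 0.0023). Icam1 and Darc, a chemokine-binding protein of venules, did not pass, at 0.21 and 0.97 in LFA and 1.13 and 0.68 in NTL. Which cells of the tissue gave the Selp and Vcam1 signals was not tested.

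Targets of hypoxia that were called against control all fell. Of 11 genes of the response, 1 fell in LFA and 2 in NTL, with a median of −0.39 in both, and 0 rose. Among all 36930 probes, 761 were lower in LFA and 1490 in NTL. In long against short 3 of the 11 genes were lower and 1 was higher, beside 2963 and 2391 of all probes. Egln3, an oxygen sensor, fell by 1.05 in LFA and 1.24 in NTL (adjusted p = 0.049 and 0.015), and Bnip3 fell by 1.12 in NTL (adjusted p = 0.036) and was at −0.79 in LFA (adjusted p = 0.14). Ldha and Epas1, which encodes the hypoxia factor of endothelium, were at −0.52 and −0.53 in LFA and −0.67 and −0.68 in NTL. Of 4 lymphatic genes tested, Lyve1, also found on some macrophages, rose by 1.17 in LFA (adjusted p = 0.048) and Pdpn, also found on mesothelium and fibroblasts, rose by 1.04 in NTL (adjusted p = 0.0495). Prox1, the factor that specifies lymphatic endothelium, was at 0.08 and 0.47, and Reln was at −0.59 and −0.06.

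**Figure D4:**
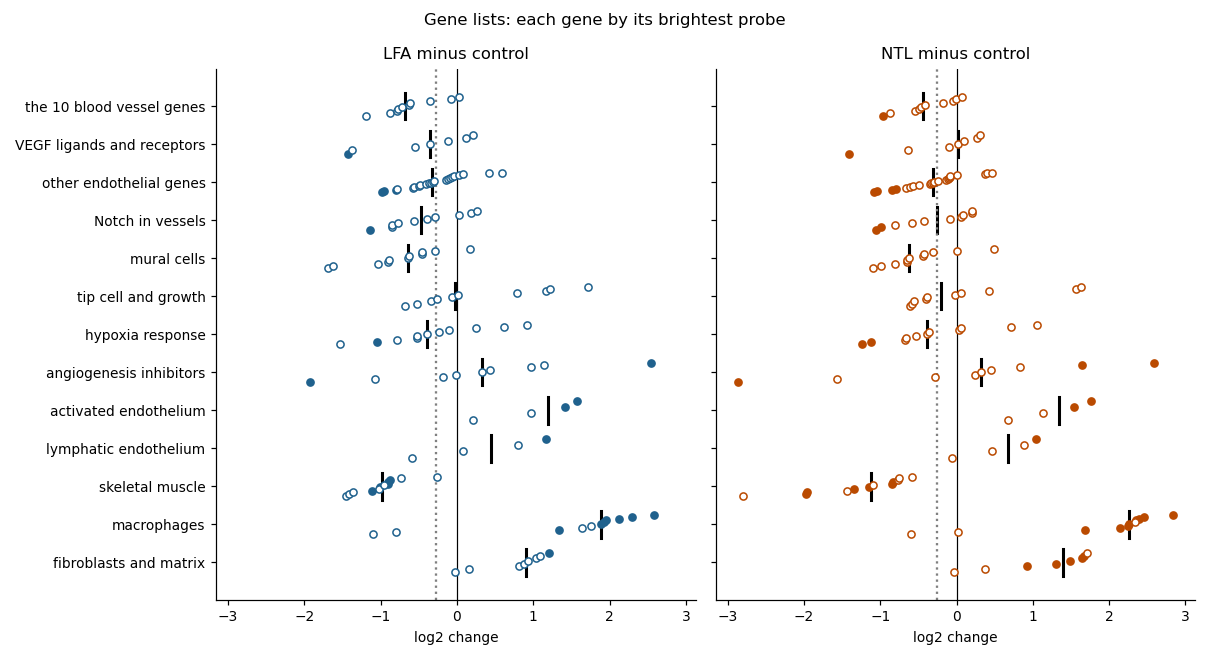
Log2 change against control (x axes) of each gene, by its brightest probe, in 13 gene lists (rows) for LFA and NTL. Filled points passed an adjusted p under 0.05, black bars are list medians, and the dotted line is the median of all probes tested: the medians of the vessel lists lie between those of the macrophage genes at the right (1.89 and 2.26) and the muscle genes at the left (−0.98 and −1.12).

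Markers of some other cell types also changed, in comparisons where 4.34% of all probes were called in LFA and 7.84% in NTL. Of 11 macrophage genes, 7 rose in LFA and 8 in NTL, and the list's mean log2 signal relative to the control mean lay between 0.78 and 2.0 in LFA, 1.68 and 1.90 in NTL, and −0.11 and 0.16 in control. The defining macrophage genes Emr1 and Cd68 were well above background on all 20 arrays and rose by 2.13 and 1.95 in LFA and by 2.46 and 2.39 in NTL. Of 8 fibroblast and matrix genes, 1 rose in LFA and 5 in NTL. Of 6 red blood cell genes, 0 fell in LFA and 2 in NTL. Their mean ran from −2.0 to −1.14 in NTL against −0.41 to 0.30 in control. It ran from −2.42 to −0.19 in LFA, −1.36 to −0.24 in NTS, and −0.35 to 0.20 in SFA. The muscle markers Acta1 and Ckm were well above background on all arrays, and Acta1 fell by 1.01 in LFA and 0.85 in NTL. Of 6 adipocyte genes, 1 fell in LFA and 4 in NTL, with medians of −0.83 and −1.33. The adipocyte mean ran from −1.57 to −0.90 in NTL, −1.43 to −0.29 in LFA, and −0.36 to 0.19 in control. It ran from −0.60 to 0.41 in SFA and −0.83 to 0.44 in NTS. None of 9 T and B cell genes and none of 9 mesothelial genes passed in LFA or NTL against control. None of 9 platelet genes passed in LFA or NTL, and Pf4 was at 0.82 and 0.84 (adjusted p = 0.12 and 0.10). Sftpc, the defining gene of lung epithelium, was well above background on 3 of 20 arrays and was not tested. Alb, the defining gene of liver, spanned −1.09 to 6.68 among the control mice and −1.0 to 9.47 in LFA, and 0 of 7 liver genes passed in either group. The part of these other cells in the values of the vessel genes was not tested, beyond the fit with the muscle genes as a covariate.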

How the data were processed

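RNA from 20 diaphragms (5 groups of 4) was labeled with Cy3 and hybridized by the authors to 1-color 60K mouse arrays, whose deposited spot intensity is the background-subtracted signal of Agilent Feature Extraction 10.7.3.1. Probe positions in the files are on NCBI37. A further table deposited by the authors gives group means of log2 values normalized in GeneSpring, and provided changes with no test. Outlier spots, 92 to 204 per array, were dropped, spots of a probe were averaged, and log2 intensity was set relative to the array's 75th percentile. Probes well above background on at least 4 arrays (36930) were fitted in limma 3.58.1 (R 4.3.3) with a mean for each group, and p-values were Benjamini-Hochberg adjusted over all of them. The fit was tested on simulated data. Tables and figures used Python 3.11.15 with pandas 2.3.3, numpy 2.4.6, scipy 1.17.1, and matplotlib 3.10.9. Each gene is given by its brightest tested probe. The genes named from the other vessel lists are the 4 of each list with the smallest adjusted p in LFA or NTL, and 8 genes most like the mean of 5 endothelial members were named; the members and lists were chosen with earlier results of these data known. Old symbols (Figf, Darc, Emr1) are those of the files. The alternatives were quantile normalization, normexp (offset 50), other filters, gene means, the authors' table, slide and replicate blocks, fewer groups, covariates for brightness, index, and muscle, the unequal-variance test of the methods, and leaving out single arrays. Slides and scans coincide: slide 1 holds control, LFA, and NTS, slide 2 all groups, and slide 3 all but NTS. Replicates are taken as separate mice, 4 for each group. The sequence of the upstream Vegfa probe is not reported here.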

Additional observations from a re-analysis of the deposited data

Results flagged for a closer look

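Among 75 sets of 4 values (15 probes in 5 groups), 9 had an end value whose gap to its neighbor exceeded the 95% critical value of Dixon's test. Chance flags about 1 in 20 such sets, and the sets share arrays. In control replicate 2, the control array with the lowest upstream-minus-3′ index, Cdh5 was at 0.80 (the other 3 at 2.65 to 2.98), Tek at −2.28 (−0.17 to 0.03), and Tie1 at 0.041 (1.52 to 1.81). In NTL replicate 2, Flt1 was at 4.85 (3.63 to 3.71) on its brightest probe and at 2.27 (1.17 to 1.33) on its second, and Angpt1 was at 2.18 (1.15 to 1.28). Cdh5 was at −0.68 in NTS replicate 4 (2.40 to 2.98). These 7 values lie in lowest-index arrays. The other 2 do not: Vegfa was at 3.75 in LFA replicate 4 (3.36 to 3.40), and Angpt1 was at 0.95 in NTS replicate 3 (1.74 to 1.85). The part of the index in these values was not tested.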

How the results depend on the processing

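The number of arrays, 4 a group, limits the precision of every change. For LFA against control (0 genes called), 1 was called with gene means, 2 with the brightness covariate, and 2 with the index covariate, and at 2-fold 1 with each covariate. For NTL against control (1 called), 0 were called under quantile normalization (Vegfa −0.72, adjusted p = 0.26), normexp (adjusted p = 0.054), no filter (0.074), the slide block (0.081), the replicate block (0.060), only the groups compared (0.135), and the muscle covariate (0.97), and 2 with gene means or the index covariate. At 2-fold, where 0 were called, 1 was with gene means, either covariate of brightness or index, and without the lowest-index arrays. Leaving out single arrays gave 0 to 1 by both rules, and the Vegfa call was lost in 14 of 20 such fits. The share of all probes called in LFA was 4.34%, and 7.03% with gene means, 3.29% with brightness, and 12.0% with the index. In NTL it was 7.84%, and 10.75%, 3.85%, and 17.96%. For the NTL fits with 0 members called it was 7.28% under quantile normalization, 8.70% with normexp, and 3.84% with no filter. It was 3.72% with the slide block, 6.54% with the replicate block, 6.14% with only the groups compared, and 0.0135% with the muscle covariate. All these shares are by the adjusted p alone, not by the 2-fold rule. For NTL against NTS (0 called), 1 was called by both rules with gene means and with the brightness covariate. By the adjusted p alone, 11.4% of all genes passed with gene means and 5.48% of all probes with brightness. For long against short (0 called), normexp called 2 (37.8% of all probes), the filter on all arrays 1 (18.8%), gene means 3 (17.8%), only the groups compared 1 (15.0%), brightness 2 (7.39%; 2 at 2-fold), index 3 (25.0%), the lowest-index arrays left out 3 (27.8%), and leaving out single arrays 0 to 2, against 14.5% of all probes in the fit reported. No call turned its direction. Replicate numbers do not mark shared animals, and same-numbered arrays deviated with a mean r of −0.033 over 40 pairs, so the replicate block describes no pairing. Of 2970 other alternatives of single changes, 2920 kept their side of the threshold and 157 changed sign, none of them called. That count includes SFA, NTS, LFA against NTL, and the comparison of length effects, where the reported fit called 0% of all probes. Keeping sides there says little about stability. The single call, Vegfa in NTL, was kept in 10 of 31 alternatives. Quantile normalization moved the all-probe calls in NTL from 1405 higher and 1490 lower to 1760 and 928, and in LFA from 842 and 761 to 1058 and 470. The authors' table gave 9 of 10 changes below 0 in LFA and 8 of 10 in NTL. The methods' test called 0 members, but it took in only the 10892 probes with a 2-fold change between control and a fiber group. Among brightest probes, only Cdh5 in LFA (−1.19) reached that change in the reported fit, and Vegfa in NTL (−0.96) did not. The share of all probes that this test called is not given, so its count of 0 says little about the members.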
